A study of Arabidopsis thaliana with 15 samples.

Results

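The plastid-encoded genes of Arabidopsis thaliana are the protein-coding genes of the plastid's own genome. Of 56 such genes listed, 55 had a probe set on the array annotated to that gene and no other, and each had 1, so no choice between probe sets arose. The remaining gene, ndhB, lies in the plastid genome in duplicate, and its only probe set was annotated to both copies, so it was left out. The 55 genes were 14 for photosystem II, 5 for photosystem I, 6 for the cytochrome b6f complex, 6 for the ATP synthase, 10 for the NDH complex, and rbcL for Rubisco. The others were 4 for the plastid RNA polymerase, 5 for RNA maturation and the ribosome, 3 for assembly and the envelope, and accD for fatty acid synthesis.

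Plastids of roots are mostly not green, yet they keep the whole plastid genome and transcribe it. A bacterial-type polymerase, whose core is encoded by rpoA, rpoB, rpoC1 and rpoC2 in the plastid itself, transcribes most photosynthesis genes, while phage-type polymerases encoded in the nucleus transcribe mainly housekeeping genes such as the rpoB operon and accD. Many plastid genes are co-transcribed and then cut and spliced, so the signal of a gene reflects transcription, processing and decay together.

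RNA from roots of 2 week old plants, grown at 23 °C in 16 h of light and 8 h of dark on modified Knop's medium, was hybridised to 15 oligonucleotide arrays. There were 3 arrays per genotype and 5 genotypes, of which Col-0 and WS are wild-type ecotypes. The triple mutant grf1/grf2/grf3 is labelled with both ecotypes. The line P35S:rGRF1, labelled Col-0, and the line P35S:rGRF3, labelled WS, carry a GRF1 or GRF3 variant that the microRNA miR396 cannot target, driven by the CaMV 35S promoter, which is active in most plant tissues. The labels do not say how many independent lines were used, nor that replicates came from separate cultures, so p-values measure only the spread between these samples. GRF1, GRF2 and GRF3 were not analysed here, so the genotypes were not checked against them. By the series title, the study asked which root genes these factors regulate.

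The values are log2 of the deposited signal, in which a difference of 1 is a 2-fold change, and levels are compared between groups for a given probe set only. A probe set was tested when its mean over the 15 arrays reached 6.84, the 40th percentile, and was called at an adjusted p under 0.05 by limma with Benjamini-Hochberg adjustment over all 13648 tested. Of the 55 genes 31 were tested, and 24 had means from 2.08 to 6.48 and were not. Just below the limit lay ndhD (6.48), rpoC1 (6.47) and rpl20 (6.25), and just above it ycf3 (7.05), psbA (7.06) and rpoC2 (7.11). The tested genes were 10 of 14 for photosystem II, 3 of 5 for photosystem I, 3 of 6 for the ATP synthase, 2 of 6 for cytochrome b6f, 3 of 10 for NDH (ndhA, ndhC and ndhI) and 2 of 4 for the polymerase (rpoA and rpoC2). Dim genes could be bright in some genotypes: rpl20, atpH, ndhD and rpoC1 had WS means above the limit, and rpl20 also its mutant mean. The labelling protocol starts from poly-A tails, which stable plastid transcripts mostly lack, so the signals need not follow the amount of plastid RNA. In whole roots, fewer cells of a type and less RNA per cell cannot be told apart.

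The arrays stood apart in several ways that touch these genes. The 18 hybridization control probe sets averaged 10.72 to 11.2 on the WS and mutant arrays and 9.68 to 10.33 on the others, so the comparisons of WS with Col-0, of the mutant with Col-0 and of P35S:rGRF3 with WS cross array sets. A genotype effect and an array-set effect cannot be told apart in those 3. The values also go against the label of P35S:rGRF3. At 62 probe sets whose wild types differed at least 16-fold, all 3 arrays labelled P35S:rGRF3, ecotype WS, lay nearer Col-0 at 59 and nearer WS at 1. The mutant arrays lay nearer WS at 58 of them, and those of P35S:rGRF1 nearer Col-0 at 62. This comparison was made after the values were seen. The P35S:rGRF3 arrays also share the hybridization control level of Col-0, and the mutant arrays that of WS. Ecotype and array set therefore cannot be told apart at these 62 probe sets. Because its arrays lay nearer Col-0, P35S:rGRF3 is given first against Col-0. The defining markers limit the check of the tissue: of 13 root markers only the root hair gene EXPA7 was named on the array, at 8.83 to 10.12, and of 17 markers of green shoot tissue 5 were.

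In the grf1/grf2/grf3 mutant 12 of the 13 tested photosystem genes were called lower than in WS by limma. The other, psaJ, was also lower, at -0.57 and without overlap, but was not called (adjusted p = 0.0978). Of the 6 untested photosystem genes 4 had a higher mean in the mutant, but only psaA, at 1.25, without overlap. psbB, at 1.47 (SE 1.06), overlapped, and psbT was lower without overlap, at -1.47 (SE 0.48). Of the 31 tested plastid-encoded genes 19 fell and 0 rose, by limma, whereas 6.54% of all probe sets tested were lower and 7.38% higher. At an unadjusted p under 0.05 the numbers were 24 and 0. The median difference of the 31 was -0.69, against -0.011 over all probe sets, and they ranged from -1.28 to 0.01. Over all 55 genes, tested or not, 46 differences were negative and 9 positive. Only psbH passed the limit through WS alone.

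Photosystem II was the group with the most calls. All 10 of its tested genes fell, with a median of -0.76. psbA encodes the D1 reaction centre protein, which is damaged by light and replaced continually. Its signals were 8.93, 8.58 and 8.46 on the WS arrays and 7.90, 7.14 and 7.08 on the mutant arrays. The mutant arrays all lay below those of WS. The difference was -1.28 (SE 0.26, adjusted p = 0.00354). psbC, for the inner antenna protein CP43, fell by 0.89 (SE 0.22, adjusted p = 0.0124), and psbH, for a small phosphoprotein, by 0.89 (SE 0.28, adjusted p = 0.0448). The psbH call was lost in 6 of 6 fits that left out a single array, with adjusted p up to 0.14, and psbH passed the limit on level through WS alone. The small subunit genes psbE, psbF, psbL and psbJ, which form 1 transcription unit and include both subunits of cytochrome b559, differed by -0.69 to -0.58, and all 4 were called. The psbL call was lost in 5 of the 6 fits that left out a single array, psbF in 3 and psbE in 2. Of the 10 genes, only the calls of psbA, psbI and psbJ held in all of these fits.

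In photosystem I 2 of 3 tested genes were called lower. psaB encodes a reaction centre subunit, and it read 10.60, 9.93 and 10.97 in WS against 9.79, 9.17 and 9.17 in the mutant. The groups did not overlap, although the second WS array lay close to the first mutant array. The difference was -1.13 (SE 0.22, adjusted p = 0.00345). psaI, for a small membrane subunit, differed by -1.20 (SE 0.22, adjusted p = 0.00217), and psaJ by -0.57 (adjusted p = 0.0978).

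**Figure D1:**
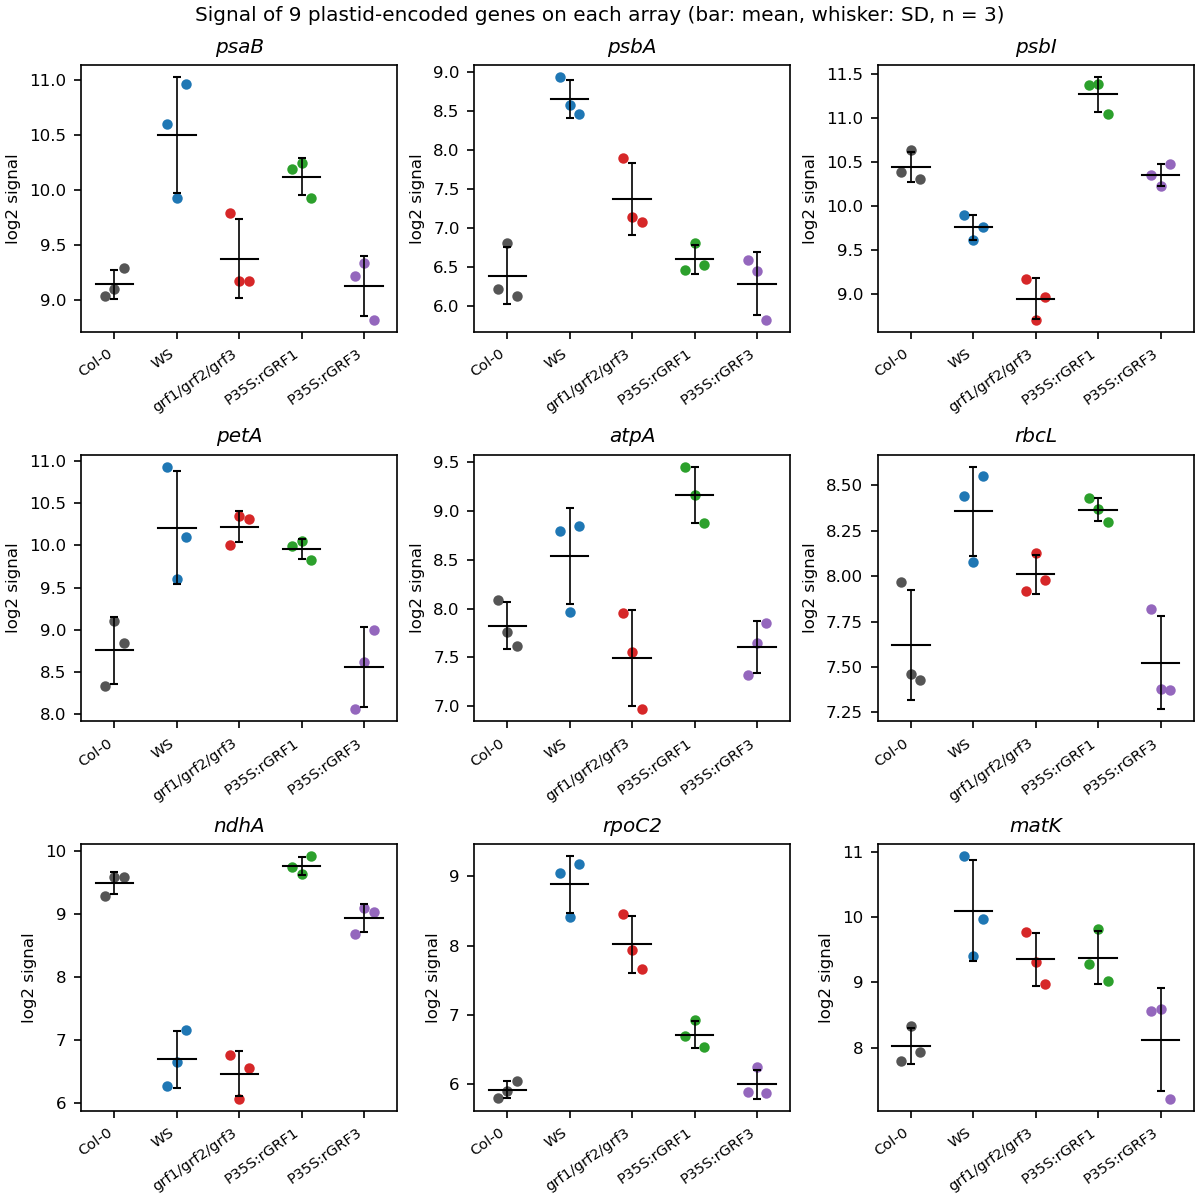
Log2 signal (vertical axes) of 9 plastid-encoded genes on each of the 15 arrays, grouped by genotype; points are arrays, the bar is the mean and the whisker the SD (n = 3). The mutant points lie below all WS points for psbA, psaB, psbI and, narrowly, atpA, and not for the others. The P35S:rGRF1 points lie above all Col-0 points for every gene shown but psbA, narrowly so for ndhA.

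The electron transport and ATP synthase genes were divided. petB, for the cytochrome b6 subunit, fell by 0.95 (SE 0.20, adjusted p = 0.00474). petA, for cytochrome f of the same complex, read 10.93, 9.60 and 10.10 in WS and 10.01, 10.35 and 10.31 in the mutant. Its groups overlapped fully, with a difference of 0.01 (SE 0.28, adjusted p = 0.987). atpA, for the alpha subunit of the ATP synthase, read 8.79, 7.97 and 8.85 in WS and 7.95, 7.56 and 6.97 in the mutant. It was lower without overlap by a narrow margin, at -1.04 (SE 0.26, adjusted p = 0.0135). atpB and atpE, for the beta and epsilon subunits, differed by -0.18 and -0.28 and were not called, and these 2 genes are co-transcribed with each other and not with atpA. rbcL, for the large subunit of Rubisco, the enzyme that fixes carbon dioxide, read 8.44, 8.08 and 8.55 in WS and 7.92, 8.13 and 7.98 in the mutant. These overlapped at 1 array on each side, and the difference of -0.34 (SE 0.17, adjusted p = 0.211) was not called.

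The NDH complex returns electrons from ferredoxin to the electron transport chain. Of its 3 tested genes only ndhI, for an iron-sulphur subunit, was called, at -0.54 (adjusted p = 0.0482), a call lost in 4 of the 6 fits that left out 1 array, while ndhA differed by -0.23 and ndhC by -0.29. For gene expression, rpoC2, a polymerase subunit gene, differed by -0.86 (SE 0.23, adjusted p = 0.0177) and rpoA by -0.53 (adjusted p = 0.053). The ribosomal protein genes rpl33 and rpl32 fell by 1.12 (SE 0.21, adjusted p = 0.00222) and 0.66 (SE 0.14, adjusted p = 0.0051). matK, which encodes a protein that promotes intron splicing, read 10.93, 9.40 and 9.97 in WS and 9.77, 9.32 and 8.97 in the mutant. Its groups overlapped, and the difference of -0.74 (SE 0.37) had an adjusted p of 0.213. accD, for a subunit of the acetyl-CoA carboxylase that starts fatty acid synthesis, read 8.27, 7.56 and 8.43 in WS and 7.56, 7.42 and 7.06 in the mutant. The mutant arrays all lay below those of WS, although the nearest pair both round to 7.56, and the difference of -0.74 (SE 0.33) had an adjusted p of 0.15. ycf3, for a photosystem I assembly factor, fell by 0.69 (SE 0.22, adjusted p = 0.0433), and cemA, for an envelope membrane protein, differed by -0.21. The differences between functional groups were not tested.

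The dim genes were not tested, and their values scattered more. psaA, the partner of psaB, read 3.37, 4.26 and 3.75 in WS and 5.49, 4.92 and 4.74 in the mutant, higher in the mutant on every array. rpoB, for the beta subunit of the polymerase, read 4.02, 4.54 and 4.17 in WS and 3.33, 0.90 and 1.59 in the mutant, lower on every array. ndhF, an NDH subunit gene, read 4.26, 3.78 and -0.93 in WS and 2.59, 3.31 and 3.66 in the mutant, with a single WS array far below the rest. psaA and psaB are co-transcribed, and their probe sets differed in opposite directions here. In the other genotypes psaA read 5.22, 4.74 and 5.51 (Col-0), 3.48, 5.41 and 4.66 (P35S:rGRF1) and 5.54, 5.24 and 5.26 (P35S:rGRF3). rpoB read 4.62, 4.16 and 3.90, then 3.80, 4.40 and 4.43, then 5.45, 3.96 and 4.58 in the same order. Both genes overlapped among these 3 genotypes. ndhF read 4.60, 3.03 and 0.84, then 0.48, 1.1 and 2.27, then -0.15, 3.55 and 1.21, spreading by more within a genotype than its means differed.

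The 25S ribosomal RNA probe set, a control on the same arrays, moved with these genes. Its signal was 9.77 to 10.81 on the mutant arrays, below the 11.42 to 11.69 of WS, a difference of -1.29 (SE 0.27). With its signal as a covariate 1 of the 19 genes, rpl33, was called, the median was -0.48 and 28 of 31 differences were negative, while 1.85% of all probe sets were called in place of 13.9%. Leaving out single arrays left 10 to 18 calls, with 10 and 11 without replicates 2 and 3 of the mutant, and 12 and 11 without replicates 1 and 3 of WS. The calls of 8 genes held without any 1 array, namely psaB, psaI, psbA, psbI, psbJ, petB, rpl32 and rpl33.

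In P35S:rGRF1 roots the tested ATP synthase genes, psbI, psbK, rbcL, petA and matK were called higher than in Col-0. Among these, only the calls of psbI, psbK and atpA held whichever single array was left out. Of the 31 tested genes 13 rose and 0 fell, by limma, against 5.3% of all probe sets higher and 5.17% lower. At an unadjusted p under 0.05 they were 19 and 0. The median difference was 0.58, against 0.035 over all probe sets, with a range from -0.08 to 1.35. Over all 55 genes 44 differences were positive and 11 negative. Of the called genes, rpoC2 lay below the limit on level in both groups.

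All 3 tested ATP synthase genes rose. atpA read 8.09, 7.76 and 7.62 in Col-0 and 9.45, 9.16 and 8.88 in the line. Every array of the line lay above every Col-0 array, and the difference was 1.34 (SE 0.26, adjusted p = 0.00502). atpE differed by 0.67 (SE 0.18, adjusted p = 0.0245) and atpB by 0.58 (SE 0.16, adjusted p = 0.0285). rbcL read 7.97, 7.46 and 7.43 in Col-0 and 8.43, 8.37 and 8.30 in the line, again without overlap, a difference of 0.75 (SE 0.17, adjusted p = 0.0135). petA read 8.33, 9.10 and 8.84 against 9.99, 10.05 and 9.83. It stood higher on all 3 arrays of the line, at 1.21 (SE 0.28, adjusted p = 0.0141).

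Of the 13 tested photosystem genes 4 rose. psaB read 9.04, 9.10 and 9.29 in Col-0 and 10.19, 10.25 and 9.93 in the line. The groups were well apart, with a difference of 0.98 (SE 0.22, adjusted p = 0.0131), and psaJ differed by 0.73 (SE 0.22, adjusted p = 0.045). In photosystem II 2 of 10 tested genes were called. They were the neighbours psbK and psbI, for small subunits of the core, at 1.06 (SE 0.18, adjusted p = 0.00225) and 0.82 with SE 0.14 (adjusted p = 0.00232). psbA read 6.23, 6.81 and 6.14 in Col-0 and 6.47, 6.81 and 6.53 in the line. These overlapped, and the difference of 0.21 (SE 0.26) had an adjusted p of 0.632. The 4 genes of the psbE unit differed by 0.32 to 0.42 and were not called.

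None of the 3 tested NDH genes was called by limma, and their differences were 0.19 to 0.27. In the polymerase group rpoC2 read 5.80, 5.90 and 6.05 in Col-0 and 6.69, 6.92 and 6.53 in the line, higher on every array, at 0.80 (SE 0.23, adjusted p = 0.0341). rpoA differed by 0.38 (adjusted p = 0.175). matK read 7.80, 8.34 and 7.94 in Col-0 and 9.29, 9.82 and 9.03 in the line. It had the largest difference of the 31, at 1.35 (SE 0.37, adjusted p = 0.0309), without overlap of the groups. The matK call was lost in 4 of the 6 fits that left out a single array, with adjusted p up to 0.119. cemA rose by 0.85 (SE 0.21, adjusted p = 0.0184), rpl33 differed by 0.69 (adjusted p = 0.0461) and accD by 0.42 (adjusted p = 0.432). Of the genes shown for every array, accD read 7.77, 6.98 and 7.06 in Col-0 and 7.61, 7.96 and 7.52 in the line, overlapping.

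**Figure D2:**
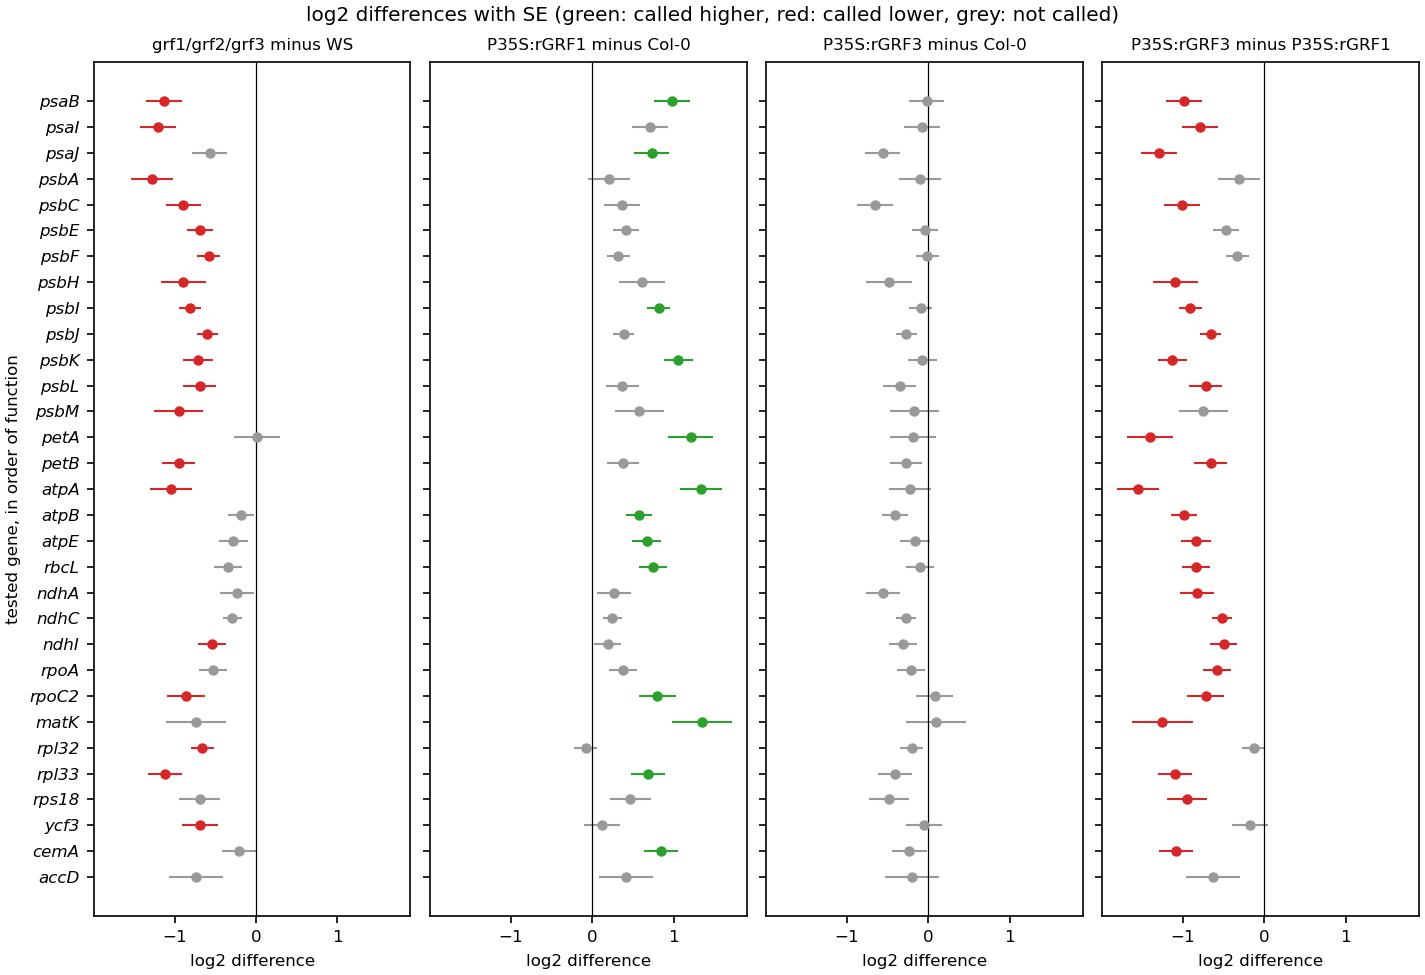
Log2 differences (horizontal axes) of the 31 tested plastid-encoded genes in 4 comparisons, in order of function; points are fitted differences, whiskers their SE, green called higher, red called lower, grey not called. The mutant column lies left of 0 but for petA, the P35S:rGRF1 column right of 0 but for rpl32, and no gene is called for P35S:rGRF3 against Col-0.

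The 25S probe set was brighter on the P35S:rGRF1 arrays, at 12.84 to 12.91 against 11.82 to 12.51 for Col-0, a difference of 0.67 (SE 0.27), and the poly-A controls, RNA added before labelling, averaged 8.01 to 8.89 and 9.30 to 9.73. With either as a covariate 5 genes were called, which were psbI, psbK, petA and atpA in both fits, with rbcL in the first and atpB in the second. Their part in the result was not tested. The count was 5 without the first or the second array of the line and 6 without the first Col-0 array, and the calls of psbI, psbK and atpA held without any 1 array.

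The mutant with WS and P35S:rGRF1 with Col-0 share no arrays. In the first comparison 6 genes fell that rose in the second, psaB, psbI, psbK, atpA, rpoC2 and rpl33. They are 31.6% of the 19 and 46.2% of the 13, beside 28.7% of all lower calls and 35.4% of all higher calls over the whole array, so the overlap lay near the background. A further 13 were called in the first comparison and not in the second. Another 7 were called in the second and not in the first (psaJ, petA, atpB, atpE, rbcL, matK and cemA), and 5 in neither (ndhA, ndhC, rpoA, rps18 and accD). Among all 13648 probe sets 256 fell in the first and rose in the second. Whether the effects differed between the 2 comparisons was not tested. Along the genome, the run from atpE through atpB, rbcL, accD, psaI and cemA to petA held a single tested call in the mutant, psaI. In P35S:rGRF1 the same run held calls at atpE, atpB, rbcL, cemA and petA.

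**Figure D3:**
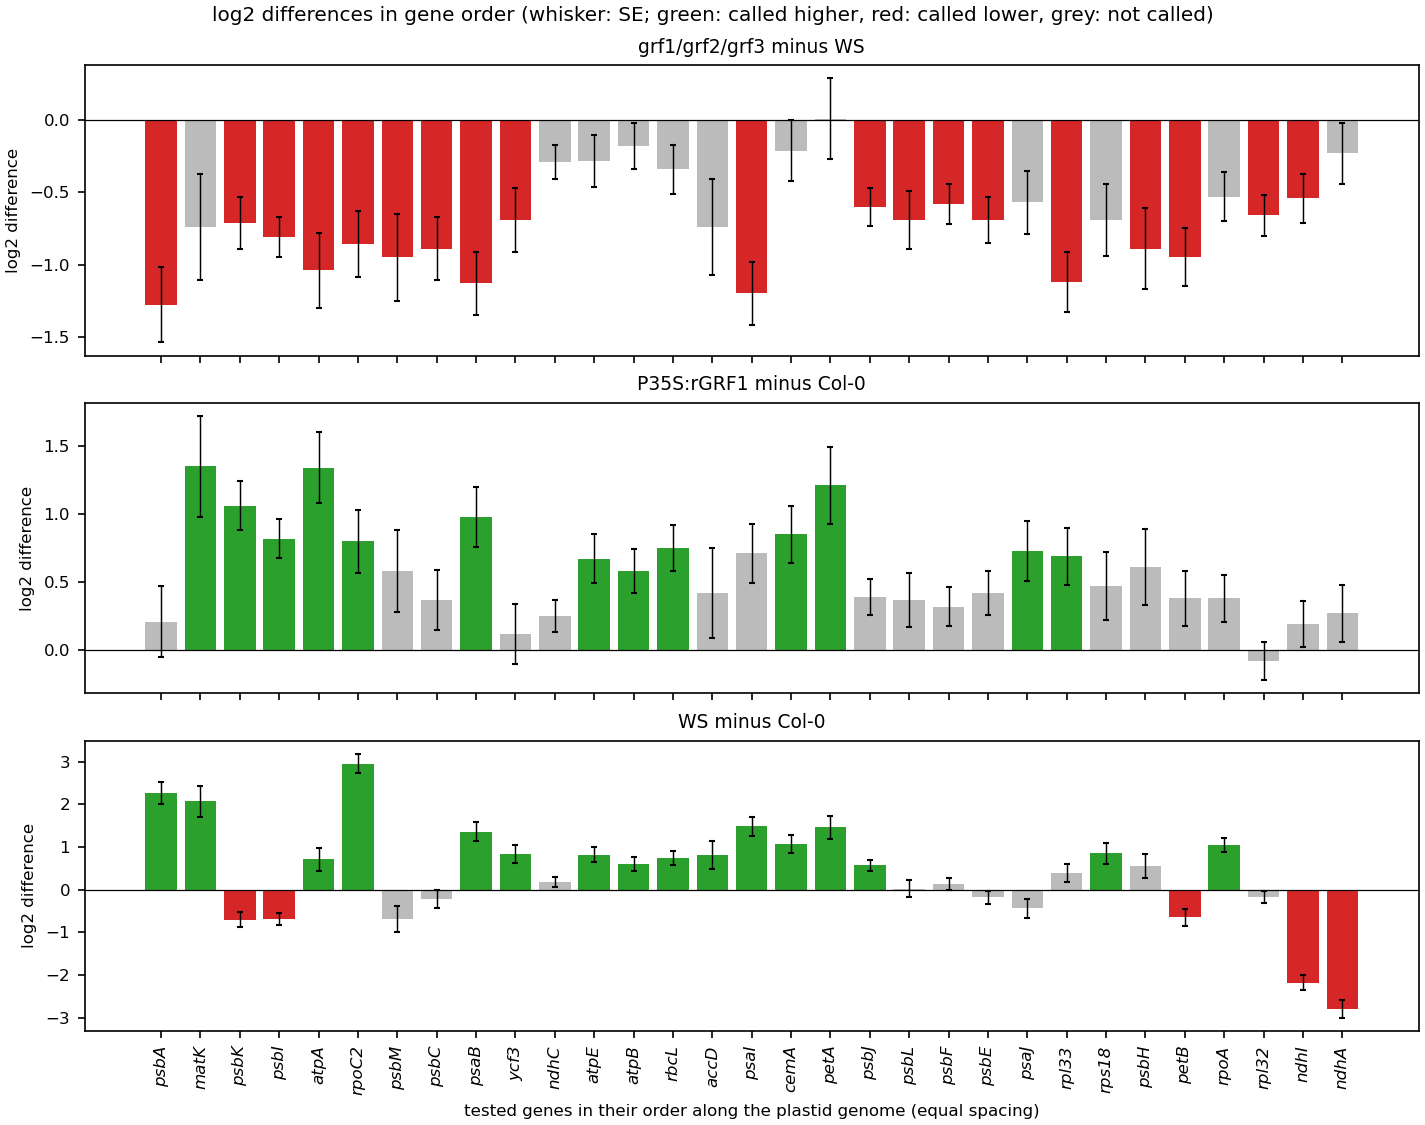
Log2 differences (vertical axes) of the 31 tested genes in their order along the plastid genome, equally spaced, for 3 comparisons; bars are fitted differences from 0, whiskers their SE, green called higher, red called lower, grey not called. In the mutant the bars from ndhC to accD are grey, and in WS against Col-0 ndhI and ndhA at the right end fall furthest while rpoC2 stands highest.

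In P35S:rGRF3 roots no plastid-encoded gene differed from Col-0 past the threshold. By limma 0 of 31 were called, against 11.9% of all probe sets in either direction (5.3% higher, 6.61% lower), and 5 were lower at an unadjusted p under 0.05 and 0 higher. The median difference was -0.20, with a range from -0.65 to 0.10, against -0.023 over all probe sets. psbC had the lowest value, -0.65. Over all 55 genes 40 differences were negative and 15 positive. Of the 55, tested or not, 5 lay below Col-0 without overlap, among them psbC, atpB, cemA and the untested atpH, and 0 above. Over the tested probe sets alone these shares were 13% and 11.5%. psbH and cemA passed the limit on level through Col-0 alone. psbA, rpoC2 and ycf3 lay below it in both groups. The count of calls was 4, all lower, without the first Col-0 array, and 6, all lower, with array weights. psaB read 9.22, 9.34 and 8.82 on the P35S:rGRF3 arrays and atpA 7.32, 7.65 and 7.85. petA read 8.06, 8.62 and 9.0, rbcL 7.82, 7.38 and 7.37. matK read 8.57, 8.59 and 7.22, and accD 7.45, 7.59 and 6.17. For all 6 genes these values overlapped those of the Col-0 arrays, and for matK and accD the third array lay far below the other 2.

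Between the lines the difference was tested directly. In P35S:rGRF3 24 of 31 genes were lower than in P35S:rGRF1 and 0 higher, by limma, against 12.6% and 8.63% of all probe sets, 21.2% in all. At an unadjusted p under 0.05 they were 27 and 0. Of the 24, psbH and cemA passed the limit on level through P35S:rGRF1 alone, and rpoC2 lay below it in both lines. The largest were atpA (-1.55, SE 0.26, adjusted p = 0.000628), petA (-1.40, SE 0.28, adjusted p = 0.00254) and psaJ (-1.29, SE 0.22, adjusted p = 0.000741). All 3 NDH genes were called here, ndhA at -0.83 (adjusted p = 0.0116), ndhC at -0.52 (adjusted p = 0.0068) and ndhI at -0.50 (adjusted p = 0.0485). The ndhI call was lost in 6 of 6 fits that left out 1 array, with adjusted p up to 0.125, and that of ndhA in 2 of 6, and none of the 3 was called with the 25S covariate. psbA read 6.59, 6.46 and 5.83 in P35S:rGRF3 and did not differ past the threshold, at -0.31 (adjusted p = 0.409). The 25S signal differed by -1.19 (SE 0.27) in the same direction, and with it as a covariate 6 genes were called. With the poly-A controls as a covariate the count was 14. The poly-A controls of the third P35S:rGRF3 array read 6.96, against 8.78 and 9.02 on the other 2.

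The wild types differed gene by gene, in both directions. WS had 16 of the 31 genes higher and 5 lower than Col-0. Of all probe sets tested 51.7% were called across these array sets, 31.4% higher and 20.3% lower. The GAPDH 3' minus 5' difference, a sign of RNA integrity, was 1.09 to 1.51 in WS and 0.39 to 0.49 in Col-0, and EXPA7, an expansin gene of root hair cells, was lower in WS by limma, at -0.77 (adjusted p = 0.00106). Their part in the result was not tested. psbA, ndhA, rpoC2 and ycf3 passed the limit on level through 1 of the 2 groups alone, so that a difference in them is fixed in part by that choice. rpoC2 read 9.05, 8.42 and 9.18 in WS, far above its Col-0 values, at 2.96 (SE 0.23, adjusted p = 3.7e-08). psbA differed by 2.26 (SE 0.26, adjusted p = 2.62e-06), matK by 2.07 (SE 0.37, adjusted p = 0.000256) and rpoA by 1.05 (SE 0.17, adjusted p = 0.000121).

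The NDH genes ndhA and ndhI were lower in WS. ndhA read 9.29, 9.58 and 9.59 in Col-0 and 6.27, 6.65 and 7.16 in WS. Its neighbour ndhI read 11.44, 11.75 and 11.88 in Col-0 and 9.32, 9.27 and 9.95 in WS. For both genes the wild types were far apart. ndhA differed by -2.79 (SE 0.21, adjusted p = 3.54e-08), and ndhI by -2.18 with SE 0.17 (adjusted p = 5.71e-08). This comparison crosses the array sets, and ndhA passed the limit on level through Col-0 alone. The mutant arrays stood with WS, at 6.77, 6.07 and 6.56 for ndhA, and those of P35S:rGRF1, at 9.74, 9.63 and 9.91, and P35S:rGRF3, at 8.68, 9.09 and 9.03, stood with Col-0. The third tested NDH gene, ndhC, did not follow them, with a difference of 0.18 between the wild types. psbK was also lower in WS, at -0.70 (SE 0.18, adjusted p = 0.0041), as was psbI, at -0.68 with SE 0.14 (adjusted p = 0.000683).

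Against Col-0, the mutant had 8 genes higher and 13 lower of 31, beside 45.1% of all probe sets called, 28.1% higher and 17% lower. It shares its Col-0 arrays with the comparisons above. psbA, psbH, ndhA, rpoC2 and ycf3 passed the limit on level through 1 of these 2 groups alone. ndhA (-3.02, SE 0.21, adjusted p = 1.45e-08) and ndhI (-2.71, SE 0.17, adjusted p = 4.68e-09) were lowest, followed by psbM (-1.64), petB (-1.61) and psbI (-1.50), while rpoC2 (2.1), petA (1.47) and matK (1.33) were higher. With the 25S signal, which differed by -1.93 (SE 0.27), as a covariate the calls numbered 8. Against WS, the ecotype on its label, P35S:rGRF3 had 4 genes higher and 19 lower, beside 52.4% of all probe sets called, 19.4% higher and 33% lower. Here psbA, psbH, ndhA, rpoC2, ycf3 and cemA passed the limit on level through 1 group alone. ndhA (2.24), ndhI (1.87), psbK (0.63) and psbI (0.60) were the 4 that were higher, and rpoC2 (-2.89), psbA (-2.36) and matK (-1.97) were the lowest.

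The nucleus encodes the partners of these proteins, and few were named on the array. Of 22 nuclear photosystem genes listed, 4 were named and tested, and 3 of them fell in the mutant against WS. Of all probe sets tested 6.54% were lower in this comparison. With the 25S signal as a covariate 1.85% of all probe sets were called there in either direction. PSAE1, for a photosystem I subunit on the stromal side, differed by -1.11 (SE 0.28, adjusted p = 0.0145), PSBW by -1.1 (SE 0.28, adjusted p = 0.0152) and PSBY by -0.67 (SE 0.13, adjusted p = 0.0036), both for small photosystem II proteins. Both named antenna genes fell, LHCB4.1 by 0.88 (adjusted p = 0.0338) and LHCB4.2 by 0.74 (adjusted p = 0.0369). ATPC1, for the gamma subunit of the ATP synthase, differed by -1.03 (SE 0.28, adjusted p = 0.0231). The NDH genes NDHL and NDHN, too dim to be tested, went the other way without overlap, at 2.17 (SE 1) and 1.77 (SE 0.72). In P35S:rGRF1 against Col-0, LHCB4.2 was the only one of the 7 tested genes called, at 1.01 (SE 0.22, adjusted p = 0.0106). Of all probe sets tested 5.3% were higher there. No gene listed for the sigma factors or for proteins associated with the plastid polymerase was named on the array.

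Of the 5 named markers of green shoot tissue 2 were tested, and 1 of them, PORB, was called in both within-set comparisons. PORB, for a protochlorophyllide reductase that acts in greening, differed by -0.89 (SE 0.20, adjusted p = 0.00805) in the mutant and by 0.93 (SE 0.20, adjusted p = 0.0096) in P35S:rGRF1. RCA, for Rubisco activase, differed by -0.15 and 0.10 in the same comparisons and was not called. The untested PRK differed by -1.13 and 0.38, without overlap in either, and SBPASE by -0.18 and 0.21. YAB3, a leaf polarity gene, went the other way, at 1.29 and -1.59, the latter without overlap. The summed signal of the 5 named markers was 1738 to 1876 in WS, 1234 to 1768 in the mutant, 1054 to 1678 in Col-0, 1603 to 1801 in P35S:rGRF1 and 1105 to 1316 in P35S:rGRF3. These are sums of signals before the log, in which RCA, the brightest of the 5 on every array, weighs most, followed by PORB. No named marker was at 0, YAB3 being the dimmest. The part of green tissue in the result was not tested. Of 11 mitochondria-encoded genes named on the array, 3 were tested. By limma 0 of the 3 were called in the mutant against WS, with a median of -0.24, and 0 in P35S:rGRF1 against Col-0, with a median of -0.05. At an unadjusted p under 0.05 1 of the 3, nad4, differed in each. Across the array sets WS had all 3 above Col-0 and also above P35S:rGRF3, and the mutant had 2 above Col-0, nad4 and cox1. For WS against Col-0 the median was 0.79 over the 3 and -0.28 over all 11, tested or not. Among the untested, nad1 was lower in WS than in Col-0, at -1.6, and nad5 higher, at 1.05, both without overlap. Between the lines nad4 (-0.80, adjusted p = 0.0333) and nad9 (-0.59, adjusted p = 0.0389) were lower in P35S:rGRF3, and nad9 was also lower there than in Col-0 (-0.65, adjusted p = 0.0388).

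**Figure D4:**
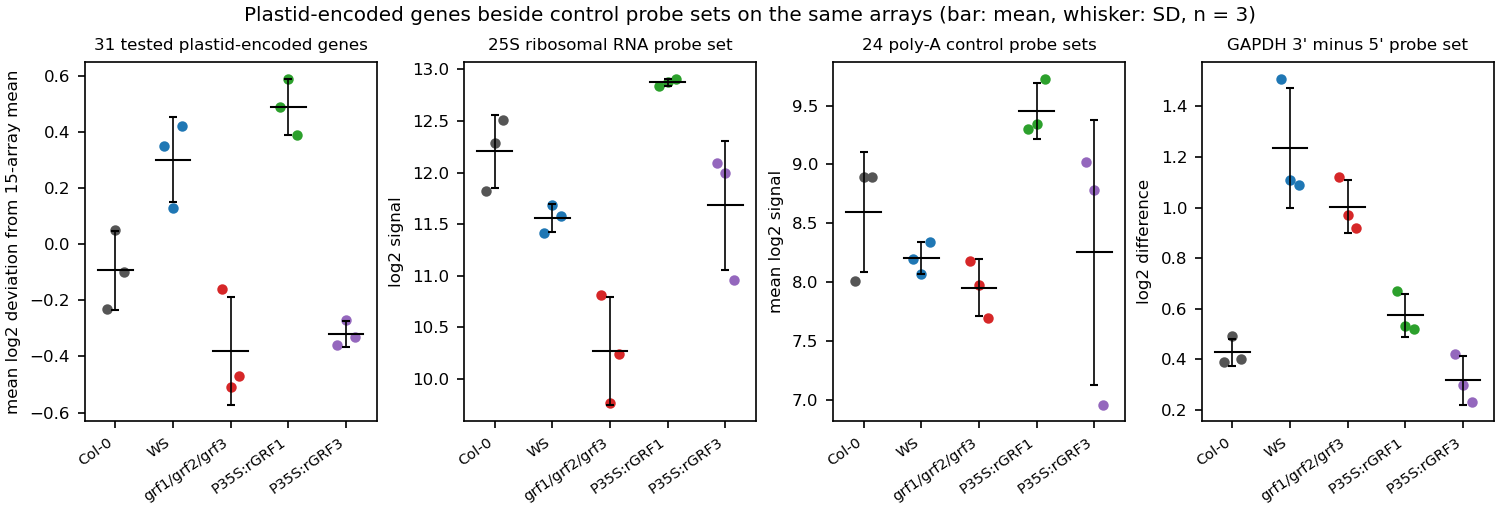
Values of each array by genotype: the mean log2 deviation of the 31 tested plastid-encoded genes from their 15-array means, the log2 signal of the 25S ribosomal RNA probe set, the mean log2 signal of 24 poly-A control probe sets, and the log2 signal of the GAPDH 3' minus the 5' probe set. Points are arrays, bars means and whiskers the SD (n = 3). The plastid-encoded genes and the 25S probe set are both lower in the mutant than in WS and higher in P35S:rGRF1 than in Col-0.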

How the data were processed

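RNA of 15 root samples was labelled by the Affymetrix one-cycle protocol, per the labels' protocols. The authors' deposited intensity values, 1 per probe set, came from MAS5 according to the submitters' processing notes, its version being not given in the sources used here. All arrays shared nearly the same trimmed mean. Precision is limited by how few arrays there are, and detection calls were not used here. Gene names come from the platform annotation, and gene order from the reference genes of assembly TAIR10.1.

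These deposited values were log2-transformed without an offset or renormalization. Apart from 64 control probe sets there were 22746, and those with a mean in the upper 60% (a log2 mean of at least 6.84, a signal of 115) were tested, 13648 in all. limma 3.58.1 (R 4.3.3, with data.table at version 1.17.8) fitted 1 mean per genotype over the 15 arrays, with moderated variances that follow a trend on the mean. Tests are two-sided, and every adjusted p is limma's after Benjamini-Hochberg adjustment over all 13648. The fit was tested on simulated data.

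The genes, lists, comparisons and tests were chosen with earlier results of these data known. psaA, psbA, petA, atpA, rbcL, ndhF, rpoB, matK and accD were to be given by array, and up to 3 called genes without overlap per functional group, comparison and direction, ranked by size. Other genes, such as those called in both the mutant and P35S:rGRF1, were chosen after their values were seen. Identical arrays were not found (highest correlation 0.9866). Alternatives were other filters, an offset of 16, quantile normalization, median centring, array weights, robust or untrended variances, a replicate block, control signals as covariates, only the groups compared, and leaving out each array.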

Additional observations from a re-analysis of the deposited data

Results flagged for a closer look

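The effects of the lines P35S:rGRF1 and P35S:rGRF3, both set against Col-0, differed at 24 of the 31 tested plastid-encoded genes, by a test of the difference itself in limma, which is the contrast of P35S:rGRF3 with P35S:rGRF1. All 24 were lower in P35S:rGRF3. Of all probe sets tested 21.2% differed between the lines, and 12.6% were lower in P35S:rGRF3. With the 25S ribosomal RNA signal as a covariate 6 of the 24 were called. psbH and cemA passed the limit on level through P35S:rGRF1 alone, and rpoC2 lay below it in both lines. P35S:rGRF3 is labelled WS, although its arrays lay nearer Col-0 at 59 of 62 probe sets. If the label holds, an ecotype effect and a transgene effect cannot be told apart here.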

How the results depend on the processing

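No called gene or count changed direction under any alternative run. With the 25S signal as a covariate the counts of calls became 1 for the mutant against WS, then 5 (P35S:rGRF1 against Col-0), 8 (mutant against Col-0) and 6 (between the lines), and with the poly-A signal 5 (P35S:rGRF1 against Col-0) and 14 (between the lines). For P35S:rGRF1 against Col-0 the count was 8 without a filter and 8 with the filter at the 60th percentile. That filter, which tests fewer genes, gave 12 for WS against Col-0, 13 for P35S:rGRF3 against WS and 15 for P35S:rGRF3 against P35S:rGRF1. Array weights gave 6 for P35S:rGRF3 against Col-0. Leaving out each array gave 10 to 18 calls for the mutant against WS, with 12 without the first WS array, 11 without the third, and 11 without the third mutant array. Against Col-0 it gave 5 to 12 for P35S:rGRF1, 0 to 4 for P35S:rGRF3, 18 to 21 for WS and 17 to 21 for the mutant. For P35S:rGRF3 it gave 22 to 23 against WS and 16 to 21 against P35S:rGRF1. Apart from the settings stated to test fewer genes or arrays, the cause was not tested. Same-numbered replicates were not paired: correlations of their deviations ran from -0.17 to 0.25, and the replicate block gave 16 calls for the mutant against WS, 14 (P35S:rGRF1) and 0 (P35S:rGRF3) against Col-0, and 23 between the lines. The mean over a gene's probe sets was not run, since each gene has 1. Signals near background limit the 24 untested genes.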
